A study of Mus musculus with 2 samples.

Results

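Erythroid barcodes were defined as deposited cell barcodes chosen by their haemoglobin share, those in which the 4 adult globin genes Hbb-bs, Hbb-bt, Hba-a1 and Hba-a2 supplied at least 50% of the unique molecular identifiers (UMIs, counted RNA molecules), with no minimum number of genes. The rule found 208 of 11467 barcodes. Of these, 202 lay in the allogeneic library, out of 3500 barcodes, and 6 in the syngeneic library, out of 7967. Each library held immune cells from lymph nodes of mice that carried a transplanted heart, with an age of 6 to 8 weeks. In the allogeneic group C57BL/6 hearts were placed in Balb/c recipients, and in the syngeneic group Balb/c hearts were placed in Balb/c recipients. Each group was 1 library made with Chromium single-cell 3′ v3 reagents, so no difference between the groups has a replicate check and no test was made; intervals are exact 95% intervals that cover counting error only. The number of mice behind a library and the genotype of its erythroid cells are not given in the labels.

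Adult haemoglobin is a tetramer of alpha and beta chains, each carrying a haem group, and red cell precursors make the chains from separate gene clusters. Reticulocytes, the youngest red cells, have expelled the nucleus and live for a short time on stored messenger RNA, most of it globin, while proteasomes and autophagy remove ribosomes and mitochondria. A lymph node is not normally a site of red cell production.

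The globin genes come as near-identical pairs, which limits how far a 3′ read can be assigned to 1 copy. Hbb-bs and Hbb-bt lie on chromosome 7 and their coding sequences of 444 bases differ at 1 base in the GRCm38 annotation, C417T (Hbb-bs first, counted from 1 at the start codon). Hba-a1 and Hba-a2 lie on chromosome 11 and differ in their 429 coding bases at 1 base, C381T (Hba-a1 first). The last coding stretches before and up to these bases are shown because they carry the only coding difference within each pair, and the capital marks it.
Hbb-bs, coding bases 328 to 417: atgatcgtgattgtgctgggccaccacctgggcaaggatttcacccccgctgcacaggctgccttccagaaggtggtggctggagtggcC
Hbb-bt, coding bases 328 to 417: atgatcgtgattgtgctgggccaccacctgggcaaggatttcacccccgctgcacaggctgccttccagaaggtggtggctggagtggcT
Hba-a1, coding bases 292 to 381: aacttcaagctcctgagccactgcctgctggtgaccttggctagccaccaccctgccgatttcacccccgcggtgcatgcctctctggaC
Hba-a2, coding bases 292 to 381: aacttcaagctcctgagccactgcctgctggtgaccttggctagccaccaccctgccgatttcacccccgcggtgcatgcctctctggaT
The 3′ untranslated regions of the beta pair differed at 35 of 131 compared bases, with 4 further gap bases, whereas those of the alpha pair had 0 mismatches over 74 compared bases. The reference carries the C57BL/6 beta haplotype, while Balb/c mice carry another one, whose genes are called Hbb-b1 and Hbb-b2. The split within each pair is therefore given as the deposited counts have it and is uncertain, more so than the sum of a pair.

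Of the genes described here, RefSeq promoter sequence (GRCm38.p6) is shown for 4 whose RNA was high together in these barcodes. Each line gives the 150 bases before the annotated start, and capitals mark the letters CACCC of the box bound by Klf1 and its relatives, the CCAAT box, the TATA box as TATAA and the GATA factor sequence GATAA, each searched on both strands.
Hbb-bs, chr7:103827929-103828078, minus strand: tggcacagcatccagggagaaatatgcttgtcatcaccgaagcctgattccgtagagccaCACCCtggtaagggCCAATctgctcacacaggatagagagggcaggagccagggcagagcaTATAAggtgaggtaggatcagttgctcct
Hbb-bt, chr7:103813924-103814073, minus strand: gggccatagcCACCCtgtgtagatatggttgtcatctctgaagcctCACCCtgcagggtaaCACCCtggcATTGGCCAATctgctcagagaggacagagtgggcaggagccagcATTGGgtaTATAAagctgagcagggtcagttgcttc
Hba-a1, chr11:32283522-32283671, plus strand: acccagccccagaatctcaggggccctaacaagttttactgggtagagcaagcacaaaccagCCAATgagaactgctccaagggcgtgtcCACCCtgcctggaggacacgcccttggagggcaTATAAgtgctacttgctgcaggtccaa
Alas2, chrX:150547267-150547416, plus strand: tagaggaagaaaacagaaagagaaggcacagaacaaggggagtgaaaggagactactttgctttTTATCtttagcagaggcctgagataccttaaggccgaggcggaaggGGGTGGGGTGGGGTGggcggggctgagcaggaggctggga
The 3 globin promoters each held TATAA, which began 29 bases before the start in Hbb-bs, 28 in Hbb-bt and 27 in Hba-a1. CCAAT occurred once in Hbb-bs and in Hba-a1 and 3 times in Hbb-bt, 2 of them on the opposite strand and 1 of these adjoining the match on the printed strand. CACCC occurred once in Hbb-bs and in Hba-a1 and 3 times in Hbb-bt. The Alas2 window held 3 CACCC matches and 1 GATAA match, all on the opposite strand, the CACCC matches beginning 40, 35 and 30 bases before the start. In windows of the same length, CACCC was present in 37.4%, CCAAT in 24.5%, TATAA in 14.2% and GATAA in 13.3% of 32851 RefSeq promoters. These matches describe letters only.

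The libraries differed in depth and in the barcodes they list. The totals were 8415043 UMIs in the allogeneic and 46486632 UMIs in the syngeneic library, and the lowest barcode had 150 and 3447 UMIs, with medians of 1950.5 and 4917. The libraries shared 66 barcode sequences, 1 of which was an erythroid barcode in the allogeneic library and 0 of which were erythroid in both.

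Erythroid barcodes made up 5.77% of the allogeneic barcodes (5.02 to 6.60%), against 0.0753% of the syngeneic barcodes (0.0276 to 0.164%). Among barcodes with at least 3447 UMIs, the smallest total in the syngeneic list, the shares were 12.1% (111 barcodes) in the allogeneic and 0.0753% in the syngeneic library. They held 95.9% of all allogeneic and 96.3% of all syngeneic haemoglobin UMIs. Haemoglobin took 12.5% of all allogeneic and 0.114% of all syngeneic UMIs.

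The threshold fell in a nearly empty range. The allogeneic erythroid barcodes closest above it had haemoglobin shares of 50.6, 53.0 and 58.9%, and the barcodes closest below had 35.6, 29.3 and 16.4%. The closest syngeneic ones had 66.1, 66.9 and 94.1% above, and 7.59, 0.397 and 0.165% below. In the allogeneic library 158 of 202 erythroid barcodes were at 90% haemoglobin or more.

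**Figure D1:**
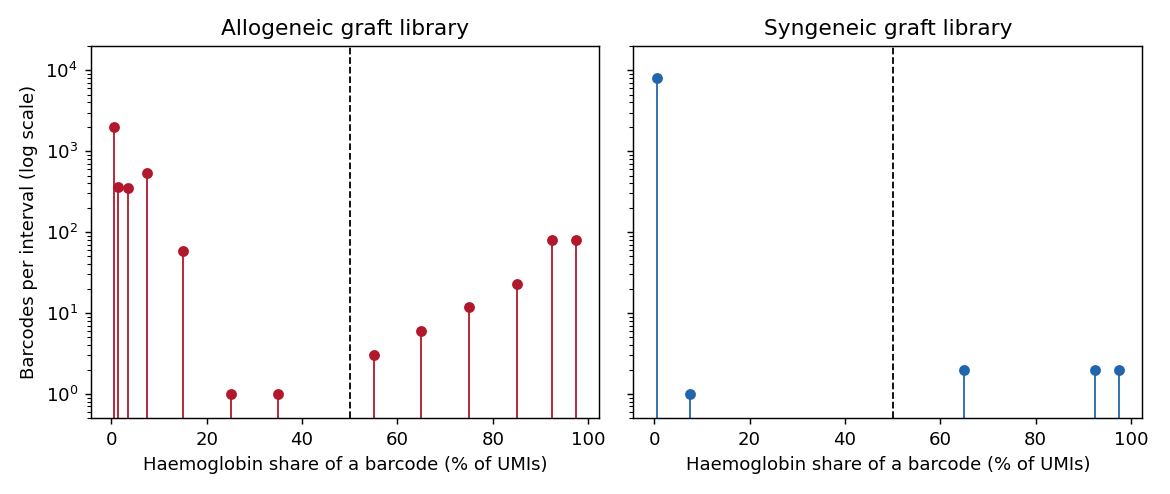
Number of barcodes (log scale) per interval of haemoglobin share (percent of a barcode's UMIs), in the allogeneic library on the left and the syngeneic library on the right. Points stand at interval centres, the intervals are narrower below 10% and above 90%, and the dashed line is the 50% threshold, above which lie 202 allogeneic and 6 syngeneic barcodes.

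The erythroid barcodes were rich in RNA and poor in genes. Allogeneic ones held 157 to 15460 UMIs with a median of 4726, and 37 to 1643 genes with a median of 145.5, so that 73 of 202 reached 200 genes. The 6 syngeneic ones held 15461, 14984, 8598, 7619, 7212 and 6868 UMIs and 248 to 1887 genes. When each barcode was thinned to 500 UMIs, the median was 26.7 genes in allogeneic erythroid barcodes against 328 in the other allogeneic barcodes, and 31.0 in syngeneic erythroid barcodes against 315 in the other syngeneic barcodes. The thinning left out 26 shallower allogeneic erythroid barcodes and 1292 other allogeneic barcodes. Within 100 UMIs other than haemoglobin the gap was small, with medians of 76.2 and 86.5 genes in allogeneic erythroid and other barcodes. The syngeneic medians were 82.7 and 85.8 genes. Only 149 of 202 allogeneic erythroid barcodes had 100 such UMIs and entered this comparison, against all 3298 others.

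The identity was checked against Hbb-bs, Hba-a1, Alas2 and Slc4a1. The 2 globins are part of the rule and every erythroid barcode had UMIs of both. Alas2, the erythroid enzyme of the rate-limiting step of haem synthesis, had at least 1 UMI in 174 of 202 allogeneic erythroid barcodes (86.1%), against 6.43% of the other allogeneic barcodes, and in 6 of 6 syngeneic erythroid barcodes, against 0.1005% of the other syngeneic ones. Thinned to 500 UMIs, the Alas2 shares were 80.6% and 1.55% in allogeneic erythroid and other barcodes, and 74.7% and 0.0100% in syngeneic ones. Slc4a1, the band 3 anion exchanger of the red cell membrane, was sparse, with 16 UMIs in 15 allogeneic erythroid barcodes and 0 UMIs in 3298 others. Syngeneic erythroid barcodes had 2 UMIs of it and the 7961 others 0. The early erythroid genes Kit and Gata1 had 0 UMIs in the erythroid barcodes of both libraries.

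Haemoglobin chains were described by summed UMIs. Allogeneic erythroid barcodes held 506551 UMIs of Hbb-bs, 55732 of Hbb-bt, 263773 of Hba-a1 and 183576 of Hba-a2. Syngeneic erythroid barcodes held 23281 UMIs of Hbb-bs, 4421 of Hbb-bt, 13113 of Hba-a1 and 10181 of Hba-a2. Beta exceeded alpha in both libraries. UMIs of a 3′ library count RNA ends and were not divided by gene length, so the ratio compares counted ends and not chains. The embryonic genes Hbb-y, Hbb-bh1, Hbb-bh2 and Hba-x had 0 UMIs in the erythroid barcodes of both libraries. For each gene the exact Poisson interval reached up to 52.7 UMIs per 1000000 UMIs other than haemoglobin in allogeneic erythroid barcodes. In syngeneic erythroid barcodes it reached up to 378.5. The theta-like genes Hbq1a and Hbq1b had 26 and 22 UMIs in allogeneic erythroid barcodes and 0 in syngeneic ones; they too are near-identical copies.

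The alpha to beta ratio over all erythroid barcodes was 0.796 (0.792 to 0.799) for allogeneic and 0.841 (0.826 to 0.856) for syngeneic ones. Per barcode, the allogeneic ratio had quartiles of 0.709 and 1.07 around a median of 0.831. The syngeneic barcodes, from the deepest to the shallowest, had ratios of 0.869, 0.890, 0.783, 0.851, 0.753 and 0.842. All 6 lay within the allogeneic quartiles, and 51 of 202 allogeneic barcodes lay within the syngeneic range.

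Chain balance moved with depth among the allogeneic erythroid barcodes. The summed alpha to beta ratio was 1.56 (1.48 to 1.65) in the 26 barcodes under 500 UMIs, 1.23 in 18 of 500 to 1000 UMIs, 1.01 in 21 of 1000 to 2000, 0.899 in 38 of 2000 to 5000, 0.829 in 33 of 5000 to 8000, and 0.748 (0.745 to 0.752) in 66 of at least 8000 UMIs. In these sums alpha exceeded beta in the shallow classes and beta exceeded alpha in the deep ones. A ratio above 2 occurred in 18 barcodes, with a median of 378 UMIs and a maximum of 5339, and none of the 66 deepest barcodes had a ratio above 1. A ratio under 0.5 occurred in 6 barcodes, of 207 to 3797 UMIs, so shallow barcodes lay at both extremes. The highest ratio, 22.8, belonged to a barcode of 197 UMIs, and the next was 4.46 in a barcode of 830 UMIs; the lowest was 0.279, in a barcode of 207 UMIs. Spearman's rho between UMIs and the ratio was -0.51 over 202 barcodes and 0.065 within the 66 deepest. These barcodes come from 1 library, and UMIs also went with the haemoglobin share that chose them (rho 0.54).

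The Hbb-bt share of beta UMIs was 9.91% (9.83 to 9.99%) in allogeneic and 15.96% (15.5 to 16.4%) in syngeneic erythroid barcodes. Per barcode the allogeneic share had a median of 6.57%, quartiles of 2.84 and 11.2% and a maximum of 18.0%. The syngeneic barcodes, in the same order as above, had 17.5, 17.0, 14.7, 17.4, 11.7 and 15.2%. In the allogeneic library 45 of 202 barcodes exceeded the lowest syngeneic value and 2 exceeded the syngeneic median. Going up through the same 6 depth classes, the allogeneic share was 2.80% (2.15 to 3.59%), 2.90%, 4.91%, 4.78%, 8.07% and 11.7% (11.6 to 11.8%). Of the 60 barcodes at 10% or more, 46 had at least 8000 UMIs, and of the 82 barcodes under 5%, 1 had. Spearman's rho with UMIs was 0.72 over all 202 barcodes and 0.51 within the 66 deepest.

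**Figure D2:**
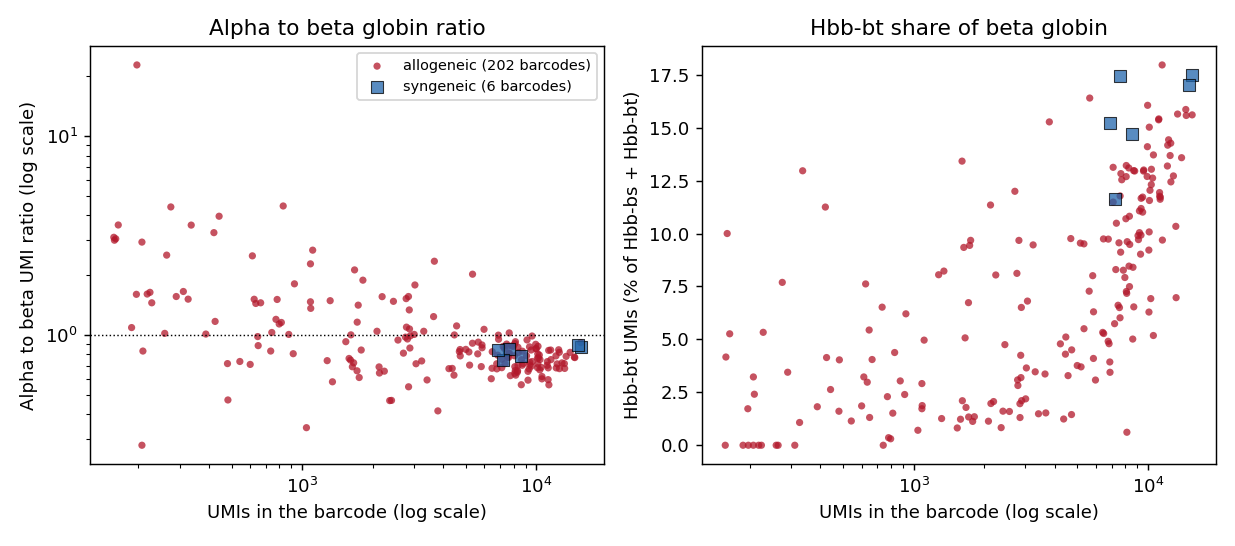
Alpha to beta UMI ratio (left, log scale) and Hbb-bt as percent of beta UMIs (right) against UMIs per barcode (log scale); each point is 1 erythroid barcode, circles for 202 allogeneic and squares for 6 syngeneic barcodes, and the dotted line marks a ratio of 1. The ratio spreads widely and often exceeds 1 at few UMIs, while Hbb-bt reaches its higher shares, up to 18.0%, mostly in deep barcodes, where the syngeneic points lie at 11.7 to 17.5%.

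Hba-a2 took 41.04% (40.9 to 41.2%) of alpha UMIs in allogeneic and 43.7% (43.1 to 44.3%) in syngeneic erythroid barcodes. Its share varied less with depth than that of Hbb-bt, from 35.1% in the allogeneic class under 500 UMIs to 41.3% in the class of at least 8000. Within these deepest barcodes the variance between barcodes was 37.0 times the binomial counting variance for the alpha share of globin, 51.1 times for Hbb-bt and 10.6 times for Hba-a2.

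A comparison at like depth used erythroid barcodes of at least 6868 UMIs, the smallest total of a syngeneic erythroid barcode, and fewer than 500 genes. This left 78 allogeneic and 4 syngeneic barcodes. The alpha to beta ratio was then 0.765 (0.761 to 0.768) in allogeneic and 0.837 (0.820 to 0.855) in syngeneic barcodes. The Hbb-bt share was 11.4% (11.3 to 11.5%) in allogeneic and 15.9% (15.4 to 16.4%) in syngeneic barcodes, and the Hba-a2 share 41.4% (41.2 to 41.5%) in allogeneic and 43.5% (42.7 to 44.2%) in syngeneic barcodes. The counting intervals of all 3 measures did not overlap, but the barcodes of a library vary beyond counting error and each group is 1 library, so whether the groups differ was not tested.

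Outside haemoglobin the erythroid barcodes held 70032 UMIs in the allogeneic and 9746 in the syngeneic library, and levels below are UMIs per 1000000 of these (CPM). Barcodes with 500 genes or more held 15746 of these UMIs in 5 allogeneic and 7883 in 2 syngeneic erythroid barcodes. Most of these barcodes also carried marker RNA of other cells (described further on). Syngeneic levels of the main red cell genes are therefore also given for the 4 syngeneic erythroid barcodes with fewer than 500 genes. The other barcodes of the same library serve as the comparison. Because haemoglobin chose the barcodes, all of these ratios are descriptions. A gene was counted as higher or lower when its ratio was at least 4-fold with a counting interval that excluded 1, provided that it had 50 UMIs or more over both kinds of barcode together. Of 8476 genes measured in the allogeneic library, 149 (1.76%) were higher and 74 (0.873%) lower, and of 10840 in the syngeneic library 159 (1.47%) were higher and 3 (0.0277%) lower. A count of 0 was set to 3 UMIs, which is 42.8 CPM in allogeneic and 308 CPM in syngeneic erythroid barcodes. Genes that were scarce in the other barcodes could therefore not be counted as lower, most of all in the syngeneic library. The median log2 ratio of all measured allogeneic genes was -0.53.

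In the haem synthesis list, 3 of 10 measured genes were higher in allogeneic erythroid barcodes, with a median log2 ratio of 0.50. None could have been counted as lower, because their levels in the other barcodes, at most 32.8 CPM, were too low for that. The 3 higher genes were the first enzyme, the last enzyme and a carrier. Alas2 had 4386 UMIs, or 62629 CPM (60789 to 64510), against 31.1 CPM in the other barcodes. Fech, which inserts iron to complete haem, had 9296 CPM against 24.4. Slc25a39, a mitochondrial carrier, had 1314 against 18.2. Of the enzymes in between few molecules were read, among them 3 UMIs of Alad, 0 of Uros, 2 of Urod, 1 of Cpox and 2 of Ppox. In syngeneic erythroid barcodes the same 3 genes were higher, of 12 measured, with Alas2 at 16725 CPM against 0.172 and Fech at 3181 against 11.5. In the 4 syngeneic barcodes with fewer than 500 genes Alas2 stood at 49920 CPM and Fech at 11809.

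For iron handling, 5 of 12 measured genes were higher in allogeneic erythroid barcodes. Ftl1, the light chain of the iron store ferritin, had 29515 CPM against 2009 in the other barcodes. Slc25a37, mitoferrin, which brings iron into mitochondria, had 1956 against 12.9. Tfrc, the transferrin receptor, rested on 4 UMIs, and Hmox1 and Blvrb, of haem breakdown, on 9 and 6 UMIs. Fth1, the ferritin heavy chain, had 4198 against 2139 and was under the 4-fold limit. In the syngeneic library 2 of 11 measured genes were higher, Ftl1 at 8003 against 1329 and Slc25a37 at 1026 against 7.97 CPM. With fewer than 500 genes, Ftl1 had 21471 and Slc25a37 2684 CPM in the 4 syngeneic barcodes.

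The reticulocyte maturation list had 13 of 20 measured genes higher and 0 lower in allogeneic erythroid barcodes, with a median log2 ratio of 3.18. Ube2l6, an ubiquitin and ISG15 conjugating enzyme, had 17164 CPM against 31.7 in the other barcodes. Mkrn1, a ubiquitin ligase, had 12837 against 163, and Bnip3l, the receptor that takes reticulocyte mitochondria into autophagy, had 9410 against 215. Ube2o, which marks ribosomal proteins for destruction in reticulocytes, had 1214 against 6.17. Bcl2l1, the survival factor Bcl-xL, had 557 against 11.8. Thinned to 500 UMIs, Ube2l6 was found in 40.2% of allogeneic erythroid and 1.73% of other barcodes and Bnip3l in 22.2% and 9.81%. Trim58 and Trim10, ubiquitin ligases of erythroblasts, had 0 UMIs in erythroid and other barcodes alike, in both libraries. Syngeneic erythroid barcodes had 9 of 19 measured genes higher, among them Ube2l6 at 4617 against 11.5, Mkrn1 at 5336 against 98.9 and Bnip3l at 4412 against 167 CPM. The 4 syngeneic barcodes with fewer than 500 genes had 17177 CPM of Ube2l6, 17713 of Mkrn1 and 18787 of Bnip3l.

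Red cell metabolism and antioxidant genes were higher in 6 of 10 measured cases in the allogeneic erythroid barcodes. Bpgm, which makes the 2,3-bisphosphoglycerate that lowers oxygen affinity, had 7996 CPM against 37.2 in the other barcodes. Gpx1 had 5012 against 290, Prdx2, a peroxidase abundant in red cells, 1242 against 67.6, and Cat, catalase, 571 against 26.7. Ucp2 and Car2 were the other 2, and Glrx, at 1 UMI, was lower. In the syngeneic library 4 of 10 were higher, with Bpgm at 4925 against 22.3 CPM, and at 12882 CPM in the 4 barcodes with fewer than 500 genes.

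Membrane genes were thinly covered. In the skeleton list 2 of 4 measured genes were higher in allogeneic erythroid barcodes, Epb41, protein 4.1, at 3213 CPM against 57.1, and Mpp1 on 11 UMIs. Ank1, ankyrin, had 0 UMIs in erythroid and in other allogeneic barcodes. Among transport and blood group genes 1 of 5 was higher, Cd24a at 2842 CPM against 47.7. Syngeneic erythroid barcodes had 1 of 5 skeleton genes higher, Epb41 on 6 UMIs, and 2 of 6 transport genes, Cd59a on 1 UMI and Cd24a on 7.

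Erythroid transcription factors left little RNA. Of 11 measured in the allogeneic library 3 were higher, Tfdp2 with 19 UMIs, E2f2 with 13 and Lmo2 with 10, and the whole list of 13 genes had 63 UMIs. The list had a median log2 ratio of -0.44, against -0.53 for all measured allogeneic genes. Klf1, the activator of adult beta globin, had 1 UMI, and Tal1, Nfe2 and Zfpm1 had 0. Tal1 was at 0 in the other allogeneic barcodes as well. The whole list had 6 UMIs in syngeneic erythroid barcodes. In the cell cycle list 0 of 10 allogeneic and 0 of 12 syngeneic measured genes were higher, with 31 and 10 UMIs in all. The nuclear RNA Malat1 had 10110 CPM in allogeneic erythroid barcodes against 25109 in the others. The syngeneic level was 22060 against 21164, but 6978 in the 4 syngeneic erythroid barcodes with fewer than 500 genes.

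**Figure D3:**
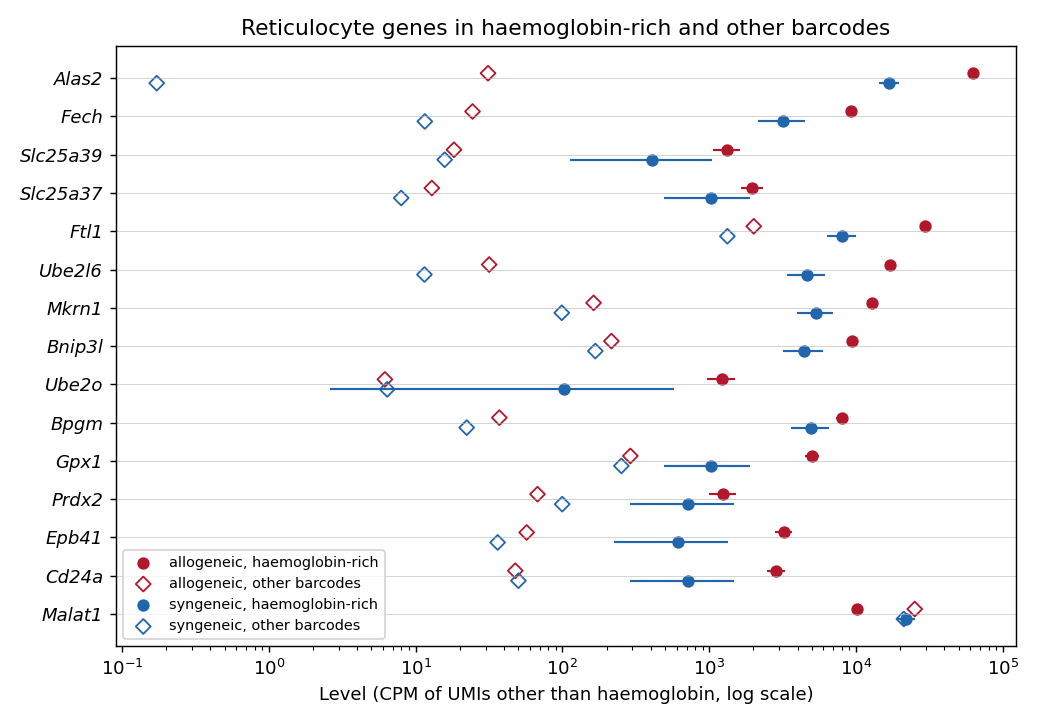
Levels (CPM of UMIs other than haemoglobin, log scale) of 14 genes high in erythroid barcodes and of Malat1; filled circles are haemoglobin-rich (erythroid) barcodes with exact 95% Poisson intervals, open diamonds the other barcodes, red the allogeneic and blue the syngeneic library, with all 202 and 6 erythroid barcodes summed. The circles lie right of the diamonds in every row but that of Malat1.

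Other genes named by level or ratio in allogeneic erythroid barcodes were Oaz1, an inhibitor of ornithine decarboxylase, at 8282 CPM against 1136 in the others, and Fam220a at 7340 against 32.9. March2, a membrane ubiquitin ligase, had 5926 against 71.0, and Isca1, of mitochondrial iron-sulphur cluster assembly, 5854 against 46.1. Fam213a had 1314 against 9.46 and AK157302 1214 against 14.95. Tpt1 at 5954 against 3697 and Gm8730 at 6583 against 5780 were high in both kinds of barcode. Rsad2, which encodes the interferon-induced protein viperin, had 1771 CPM against 22.6 and was the only one of 10 measured type I interferon response genes that was higher. It had UMIs in 54 of 202 allogeneic erythroid barcodes, against 3.85% of the others. In the syngeneic library Rsad2 was likewise the only one of 10 measured interferon genes that was higher, at 308 CPM against 1.83. That level rested on 3 UMIs, in 3 of 6 syngeneic erythroid barcodes, against 0.729% of the others.

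Set against haemoglobin, Alas2 in the allogeneic erythroid barcodes did not move steadily with depth. It was 23.3 UMIs per 10000 haemoglobin UMIs (12.4 to 39.9) in the barcodes under 500 UMIs and 33.3 in those of 500 to 1000. It was 54.4, 40.1, 47.3 and 42.6 (41.1 to 44.3) in the next 4 classes.

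At like depth, with 78 allogeneic and 4 syngeneic barcodes, 131 genes had at least 50 UMIs over both libraries' erythroid barcodes, and the median log2 ratio, allogeneic over syngeneic, was -0.06. Of these, 3 genes (2.29%), Epb41, Isca1 and Gpx1, were at least 4-fold higher in the allogeneic barcodes with an interval above 1, and 0 were at least 4-fold lower. Their ratios rested on 1 to 3 syngeneic UMIs, at 7.88 (1.39 to 313) for Epb41, 4.70 (1.59 to 22.9) for Isca1 and 4.44 (1.503 to 21.7) for Gpx1. Alas2 had 82100 CPM in allogeneic and 49920 in syngeneic barcodes, a ratio of 1.64 (1.34 to 2.04). Fech had 13140 and 11809 CPM in allogeneic and syngeneic barcodes, and Bpgm 12273 and 12882, with intervals of the ratio that included 1. Without a size limit the interval lay above 1 for 7 genes and below 1 for 10. Those below included the ribosomal protein gene Rps6 at a ratio of 0.256 (0.140 to 0.505), Tmsb4x, an actin-binding peptide of white cells, at 0.407 (0.261 to 0.666) and Pabpc1, which binds poly(A) tails, at 0.337 (0.205 to 0.588). S100a8, a neutrophil gene, had 219 UMIs in allogeneic and 0 in syngeneic barcodes.

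Mitochondrial transcripts were few. They made up 0.131% (0.124 to 0.138%) of all UMIs in allogeneic erythroid barcodes, against 3.14% in the other allogeneic barcodes. The syngeneic shares were 0.288% (0.247 to 0.334%) in erythroid and 2.37% in other barcodes. Since haemoglobin fills most of the total, the share was also taken over UMIs other than haemoglobin. It was then 2.02% (1.91 to 2.12%) in allogeneic erythroid barcodes against 3.16% in the others, and 1.80% (1.54 to 2.08%) in syngeneic erythroid barcodes against 2.37% in the others.

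The 18 allogeneic erythroid barcodes with 0 mitochondrial UMIs all had under 5000 UMIs. Across the 6 depth classes the share of all UMIs was 0.472, 0.281, 0.208, 0.0927, 0.0847 and 0.143%, and the share of UMIs other than haemoglobin was 2.08, 2.57, 2.82, 1.68, 1.95 and 2.02%. The second measure moved little with depth, with a Spearman's rho of -0.083 over 202 barcodes. The 6 syngeneic barcodes had 2.11, 1.71, 2.06, 1.08, 1.40 and 1.5% by this measure. At like depth the shares of UMIs other than haemoglobin were 1.79% (1.66 to 1.93%) in allogeneic and 1.61% (1.09 to 2.29%) in syngeneic barcodes, whose intervals overlap. Of the 682 mitochondrial UMIs in this allogeneic set, 89 came from 1 barcode, in which the share was 14.7%. Per barcode the allogeneic median was 1.57%, with quartiles of 1.05 and 2.03%.

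All 13 mitochondrial genes had allogeneic ratios below 1, of 0.288 to 0.861, and the counting interval lay below 1 for 10 of them and, in the syngeneic library, for 2. Ratios below 1 were usual in the allogeneic library, where all 8476 measured genes had a median log2 ratio of -0.53. Whether mitochondrial genes were lower than genes at large was not tested. In allogeneic erythroid barcodes mt-Atp6, a subunit of ATP synthase, had 5597 CPM against 7616 in the others, a ratio of 0.735 (0.664 to 0.812). The cytochrome oxidase subunit mt-Co1 had 4012 against 6554, a ratio of 0.612 (0.542 to 0.688), and mt-Nd2, of complex I, 386 against 827, a ratio of 0.466 (0.307 to 0.679). None of the 13 allogeneic ratios was past the 4-fold limit. Ribosomal protein genes took 21.8% of UMIs other than haemoglobin in allogeneic erythroid barcodes against 31.7% in the others, and 24.0% against 36.9% in the syngeneic library.

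**Figure D4:**
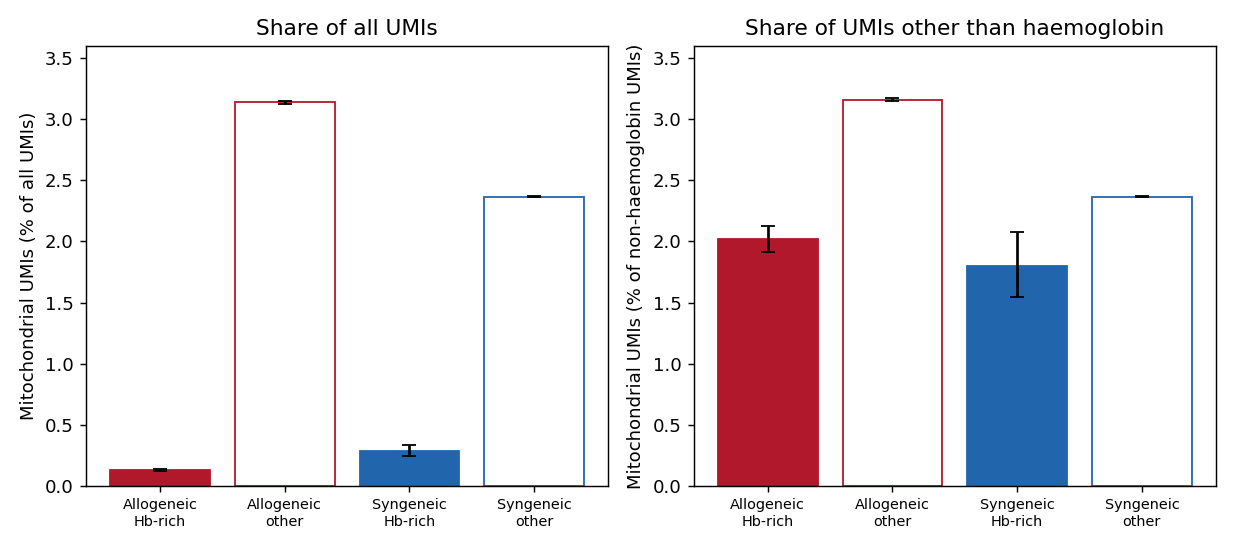
Mitochondrial UMIs as percent of all UMIs (left) and of UMIs other than haemoglobin (right), summed over haemoglobin-rich (Hb-rich, erythroid) barcodes (filled bars) and over other barcodes (open bars) of the allogeneic (red) and syngeneic (blue) library, with exact 95% binomial intervals. The gap of 0.131% against 3.14% in the allogeneic library on the left is 2.02% against 3.16% on the right.

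Some erythroid barcodes also carried RNA of other cells. Of the allogeneic ones 5 had 500 genes or more, with haemoglobin shares of 63.3, 89.7, 61.4, 82.6 and 60.7%. Among these, 1 had 121 UMIs of B cell markers, 2 had 11 and 12 UMIs of T cell markers, and 1 had 25 UMIs of macrophage markers. The other, at 89.7% haemoglobin, had 2 T cell, 3 B cell, 11 neutrophil and 1 macrophage marker UMIs. Barcodes with fewer than 500 genes reached 3, 4, 17 and 6. Of the syngeneic ones 2 of 6 had 500 genes or more, 1 with 153 B cell marker UMIs and 1 with 11 T cell marker UMIs. Without these barcodes the mitochondrial share of all UMIs was 0.0997% in 197 allogeneic and 0.0807% in 4 syngeneic erythroid barcodes. No doublet caller was run.

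Neutrophil markers were found in most allogeneic erythroid barcodes. At least 1 UMI of the 10 markers was found in 171 of 202, against 88.8% of the other allogeneic barcodes, and in 0 of 6 syngeneic erythroid barcodes, against 4.67% of the others. The 10 genes summed to 9367 CPM in allogeneic erythroid barcodes against 21012 in the others, and all 10 were at 0 in syngeneic erythroid barcodes. S100a8 had UMIs in 139 of 202 allogeneic erythroid barcodes, and thinned to 500 UMIs its share was 14.0% against 30.5% in the others. T cell markers summed to 1942 CPM against 2696 and B cell markers to 3613 against 4139 in the allogeneic library, and macrophage markers to 814 against 581. Syngeneic B cell markers summed to 16314 CPM in erythroid barcodes against 5981 in the others, on 159 UMIs of which 153 lay in 1 barcode, and syngeneic T cell markers to 1744 against 3734. All 8 platelet markers were at 0 in the erythroid barcodes of both libraries. None of these 5 lists had a gene counted as higher in either library, and their part in the values above was not tested.

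**Figure D5:**
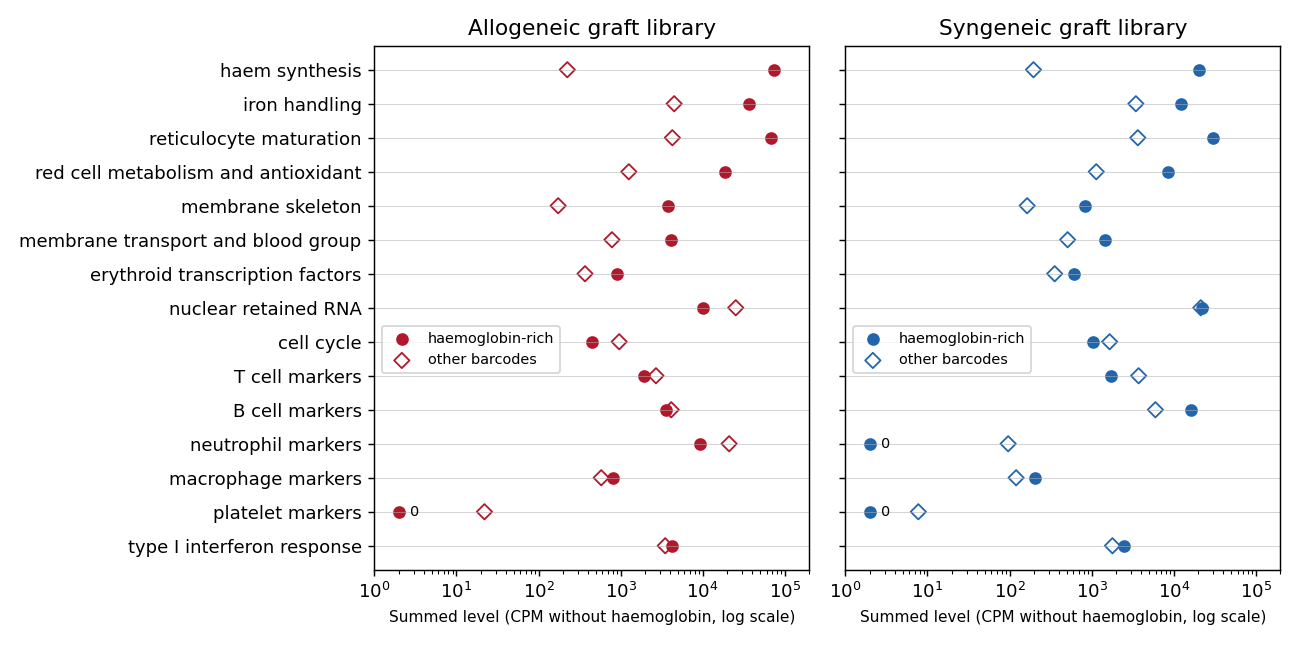
Summed levels of 15 gene lists (CPM of UMIs other than haemoglobin, log scale) in haemoglobin-rich (erythroid) barcodes (filled circles) and other barcodes (open diamonds) of the allogeneic library (left) and the syngeneic library (right). A circle marked 0 had no UMI and is drawn at the left edge. The sums of the first 7 lists lie higher in erythroid barcodes of both libraries. Among the allogeneic lists the median log2 ratio over genes was -0.44 for transcription factors and 0.10 for membrane transport and blood group. It was -0.53 for all measured genes. In the syngeneic erythroid barcodes the membrane skeleton sum rests on 8 UMIs. The transcription factor sum there rests on 6, with 10 of 13 factors at 0. The allogeneic neutrophil list, at 9367 against 21012, is lower.

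Haemoglobin was also read outside the erythroid barcodes. In the allogeneic library 99.6% of the 3298 other barcodes had at least 1 haemoglobin UMI, with a median of 11 and quartiles of 7 and 15. In the syngeneic library 18.0% of the 7961 others had one, and the median was 0. The alpha to beta ratio of this RNA was 0.508 (0.498 to 0.519) in the other allogeneic barcodes, lower than the 0.796 of the allogeneic erythroid barcodes, and 0.462 (0.419 to 0.508) in the other syngeneic barcodes. Hbb-bt took 6.84% of beta UMIs in the other allogeneic barcodes and Hba-a2 41.1% of alpha UMIs. Alas2 stood at 52.6 UMIs per 10000 haemoglobin UMIs there (45.96 to 59.9), against 43.4 (42.2 to 44.7) in the allogeneic erythroid barcodes.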

How the data were processed

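Single-cell RNA of lymph node immune cells was measured in 2 libraries, 1 allogeneic and 1 syngeneic. For each, the authors deposited raw UMI counts, whole numbers with no normalisation, as a gene by barcode matrix. The submitters' processing notes list mm10, Seurat 2.3.4, Cell Ranger 2.2.0 and STAR without saying what each did. The selection of barcodes before deposit is not given in the labels. The gene list has 27998 entries with 27933 symbols, and counts of a shared symbol were summed.

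Python 3.11.15 with numpy 2.4.6, pandas 2.3.3, scipy 1.17.1 and matplotlib 3.10.9 was used. Barcodes with at least 50% haemoglobin UMIs were taken with no other filter, and UMIs were summed per library over them and over all other barcodes. Depth was 8415043 UMIs (allogeneic) and 46486632 UMIs (syngeneic). Shares have exact Clopper-Pearson intervals and levels exact Poisson intervals at 95%; both cover counting error only. A count of 0 was given a floor of 3 UMIs. Shares of barcodes with a UMI were also computed after thinning to 500 UMIs. The ratio computation was checked on simulated data. Genes were named by a rule: in allogeneic erythroid barcodes, leaving out haemoglobin, mitochondrial, ribosomal protein and immune receptor genes, the 15 with the highest level, the 15 with the highest ratio over other barcodes among those with at least 50 UMIs, and up to 4 per list by level. Some genes that the rule or lists hold are not reported here. Further list members are named for the counts they enter or as known steps of a pathway. The members and lists were chosen with earlier results of these data known, and the depth classes, the limit of 500 genes and the depth of the smallest syngeneic erythroid barcode after the values were seen. Alternatives covered the haemoglobin threshold, filters on genes, UMIs and mitochondrial share, and sums against medians over barcodes.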

Additional observations from a re-analysis of the deposited data

How the results depend on the processing

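No paired analysis was possible because each group is 1 library and nothing was tested. In the allogeneic library the erythroid share of barcodes was 4.51% with a haemoglobin threshold of 90% and 3.01% with at least 200 genes. The share was 7.02% with at most 10% mitochondrial UMIs, 12.1% with at least the smallest syngeneic total and 8.07% with at least 500 UMIs. These UMI limits were put on erythroid and other barcodes alike. Erythroid barcodes at syngeneic depth were 2.37% of all allogeneic barcodes. That limit was put on the erythroid barcodes only, so the value is not a share among barcodes of like depth. Over the same alternatives the alpha to beta ratio was 0.751 with at least 200 genes, 0.773 at the smallest syngeneic total, 0.8003 with fewer than 500 genes, 0.761 at syngeneic depth and 0.831 as a median over barcodes. The Hbb-bt share was 10.04% at the 90% threshold, 11.5% with 200 genes, 10.52% at the smallest syngeneic total, 11.3% at syngeneic depth and 6.57% as a median. The Hba-a2 share was 41.2% at 90%, with 200 genes and at the smallest syngeneic total, 41.3% at syngeneic depth and 40.4% as a median. The mitochondrial share was 0.105% at 70%, 0.0951% at 90%, 0.141% with 200 genes, 0.0997% with fewer than 500 genes, 0.0936% as a median and 2.02% over UMIs other than haemoglobin, and 49 genes were at least 4-fold lower with 200 genes. In the syngeneic library the mitochondrial share was 0.0807% at 70%, at 90% and with fewer than 500 genes, 0.0890% as a median and 1.80% over UMIs other than haemoglobin, and 5 genes were at least 4-fold lower under each of these 3 settings. Of 684 ratios of 76 named genes under 9 settings, 581 stayed within the counting interval, 102 moved beyond it in the same direction and 1 reversed, that of Cd74, with a log2 ratio of 1.19 at the smallest syngeneic total; the cause was not tested. The depth limits genes near the floor of 3 UMIs, which is 42.8 CPM in allogeneic and 308 CPM in syngeneic erythroid barcodes.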
